A study of Mus musculus with 8 samples.

Results

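The genes described here are 7 matrix metalloproteinases (Mmp2, Mmp8, Mmp9, Mmp12, Mmp13, Mmp14 and Mmp19) and 3 tissue inhibitors of metalloproteinases (Timp1, Timp2 and Timp3). They were taken by symbol from a table of 14980 genes, and all 10 were found and passed the filter on low counts. RNA was sequenced from macrophages of the colon wall, sorted as MHCII+CD64+ and divided by whether they stained for GPR35, a G protein-coupled receptor. Both populations came from each of 4 male mice, and the 8 libraries form 2 groups of 4 that share their animals, sex and gate. The labels used here give no strain, age, genotype or treatment, nor the number of cells sorted per library. The set was proposed with earlier results of this comparison in view, as macrophage proteases set against stromal proteases and inhibitors. The differences of the 10 genes between the groups are therefore described and not tested.

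Matrix metalloproteinases are zinc-dependent endopeptidases that cut collagens, elastin, proteoglycans, cytokines and chemokines. Most are secreted as inactive proenzymes and become active when a propeptide is removed, while Mmp14 is anchored in the plasma membrane. Tissue inhibitors of metalloproteinases bind the active site one to one. In the gut wall both fibroblasts and macrophages make these proteins, and the balance between proteases and inhibitors sets how matrix is turned over.

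The libraries held 33.8 to 48.6 M counts (M, 1000000) in the GPR35-positive group and 16.0 to 30.1 M in the GPR35-negative group. Gpr35 itself lay between 56.3 and 91.9 CPM (counts scaled to 1000000 per library) in the positive libraries and between 1.13 and 4.69 CPM in the negative ones. The 2 groups also differed in cell type markers. Summed over 20 macrophage identity genes, such as Csf1r, Cd68 and Adgre1, the level was 49598 to 59093 CPM in GPR35-positive and 5626 to 24398 CPM in GPR35-negative libraries. Summed over 8 plasma cell genes, such as Jchain and Sdc1, it was 1181 to 2630 CPM and 73260 to 142820 CPM. Summed over 12 fibroblast genes, such as Dcn, Lum and Col1a1, it was 156 to 990 CPM and 3801 to 7492 CPM. Markers of plasma cells and fibroblasts, cells other than the macrophages named by the label, were thus high in the GPR35-negative libraries. The sum of 8 dendritic cell genes went the other way, with 150 to 280 CPM in positive and 80.5 to 108 in negative libraries. For each gene below it cannot be told apart whether fewer cells of a type or less RNA per cell lowered a level.

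Mmp13, Mmp12 and Mmp8, the genes with the highest folds below, lie in a cluster of 10 metalloproteinase genes on chromosome 9. Mmp13 and Mmp12 are next to each other. Between Mmp12 and Mmp8 lie other genes, among them Mmp3 and Mmp10, which were lower in the positive library of each animal. In GRCm38.p6 the cluster runs from 7272514 to 7699585, over 427.1 kb, and 5 of its genes were in the count table. Mmp13 lies at 7272514 to 7283333, Mmp12 at 7344397 to 7360461 and Mmp8 at 7558429 to 7568486, all protein coding and on the plus strand. The sequences before the starts of Mmp13, Mmp12 and Mmp8 are shown because these 3 genes had the highest folds. They come from RefSeq (GRCm38.p6, plus strand, 5′ to 3′), which gave windows for 7 of the 10 genes. Each runs from 250 bases before a RefSeq start to the base before it, with bases of annotated exons removed. Mmp12 has 2 such starts. Capitals mark 4 motifs: the AP-1 site (TGANTCA, read the same on both strands), the PEA3 site of ETS factors (AGGAAG or CTTCCT), the TATA box (TATAAA or TTTATA) and the GC box (GGGCGG or CCGCCC). No match of another motif overlapped an AP-1 match in the windows shown.
Mmp13, chr9:7272264-7272513: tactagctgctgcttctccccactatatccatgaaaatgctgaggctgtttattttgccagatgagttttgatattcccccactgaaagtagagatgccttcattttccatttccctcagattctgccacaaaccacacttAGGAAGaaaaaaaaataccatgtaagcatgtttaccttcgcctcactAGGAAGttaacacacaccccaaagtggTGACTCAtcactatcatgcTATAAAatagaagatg
Mmp12, upstream start, chr9:7344147-7344380: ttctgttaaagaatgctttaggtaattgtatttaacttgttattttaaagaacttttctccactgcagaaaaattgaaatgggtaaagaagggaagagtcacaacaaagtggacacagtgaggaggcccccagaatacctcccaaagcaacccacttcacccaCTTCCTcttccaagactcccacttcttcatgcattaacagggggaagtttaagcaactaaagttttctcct
Mmp12, downstream start, chr9:7347124-7347373: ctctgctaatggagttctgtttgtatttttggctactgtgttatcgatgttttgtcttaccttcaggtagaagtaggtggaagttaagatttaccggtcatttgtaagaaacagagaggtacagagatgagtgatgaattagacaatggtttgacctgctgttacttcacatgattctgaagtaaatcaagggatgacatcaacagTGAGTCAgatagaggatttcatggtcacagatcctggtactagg
Mmp8, chr9:7558179-7558428: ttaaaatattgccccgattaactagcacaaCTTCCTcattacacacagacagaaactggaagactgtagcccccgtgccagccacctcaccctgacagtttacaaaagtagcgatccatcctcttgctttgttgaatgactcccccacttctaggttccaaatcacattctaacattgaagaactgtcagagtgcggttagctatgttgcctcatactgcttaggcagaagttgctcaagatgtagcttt

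An AP-1 match (TGACTCA) stood 35 to 29 bases before the start of Mmp13, with a TATA box at 16 to 11 bases. Another AP-1 match (TGAGTCA) stood 44 to 38 bases before the downstream start of Mmp12. The upstream start of Mmp12 and the start of Mmp8 had a PEA3 match each (CTTCCT), at 87 to 82 and 220 to 215 bases. Of all 32851 RefSeq windows of 250 bases, 6.75% held the AP-1 letters, 29.5% PEA3, 12.4% the TATA box and 32.7% the GC box. Among the other windows of the set, those of Mmp14, Timp1, Timp2 and Timp3, the AP-1 letters did not occur and each held a GC box. The PEA3 letters also occurred before Mmp13 and in the windows of Mmp14, Timp1 and Timp3. These matches describe letters in the windows and no measurement of binding was made.

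Mmp12, macrophage elastase, was at 159, 369, 298 and 355 CPM in the GPR35-positive libraries of replicates 1 to 4 and at 7.55, 9.69, 4.56 and 1.06 CPM in the GPR35-negative ones. The groups did not overlap, and the lowest positive library (replicate 1) was far above the highest negative one (replicate 2). The log2 fold change, GPR35-positive minus GPR35-negative, was 5.70 ± 0.65 (SE, n = 4 per group). Within animals the ratio ran from 21.1-fold in replicate 1 to 333-fold in replicate 4, so the spread came mostly from the negative libraries.

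Mmp13, the main interstitial collagenase of rodents, was at 468, 562, 497 and 600 CPM in the positive libraries. It was at 33.1, 28.3, 16.2 and 17.0 CPM in the negative libraries. Its log2 fold change of 4.49 ± 0.28 had the smallest SE of the 3 cluster genes, and the ratios within animals were 14.1- to 35.3-fold. Mmp8, a collagenase best known from neutrophil granules, was low throughout, at 3.08, 3.98, 2.52 and 4.76 CPM (101 to 195 counts) in the positive libraries. In the negative libraries it had 13 counts in replicate 1 (0.397 CPM) and 0 in the other 3. The ratio was 7.75-fold in replicate 1, and in replicates 2 to 4 Mmp8 was at least 22.3-, 21.0- and 47.7-fold higher than a floor of 3 counts per negative library. Of 11 listed neutrophil markers 6 were in the table, with a summed level of 106 to 164 CPM in positive and 17.4 to 66.7 CPM in negative libraries. Most of that sum was Csf3r, a receptor gene, at a mean of 127 and 24.2 CPM, the 1 gene called higher of 5 tested by edgeR. The median log2 fold change of the 5 was -1.48, and S100a8, S100a9, Retnlg and Ly6g had means of 0.60 to 1.20 CPM in positive and 1.79 to 3.41 CPM in negative libraries, with none past the threshold. Ly6g was at 0 in positive replicate 3 and Cxcr2 at 0 in positive replicate 2, where Mmp8 was at 2.52 and 3.98 CPM. The part of other cells in the Mmp8 level was not tested.

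Mmp14, the membrane-anchored protease that activates pro-Mmp2 with the help of Timp2, was at 586, 366, 356 and 371 CPM in GPR35-positive cells. The negative libraries had 125, 46.7, 104 and 93.1 CPM. The groups did not overlap, positive replicate 1 stood apart at the top, and the log2 fold change was 2.18 ± 0.31. Mmp19, a secreted protease with broad substrates in basement membrane and matrix, was at 34.9, 36.4, 30.0 and 29.3 CPM against 22.6, 5.94, 9.95 and 25.1 CPM. The positive libraries were close together and all above the negative ones, which differed up to 4.22-fold among themselves. Its log2 fold change was 1.03 ± 0.41.

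Mmp9, gelatinase B, gave no common direction. It was at 19.1, 58.0, 39.3 and 48.9 CPM in positive libraries and at 43.6, 178, 27.8 and 12.5 CPM in negative ones. The positive library was lower in replicates 1 and 2 and higher in replicates 3 and 4. Negative replicate 2 alone carried the sign of the fitted log2 fold change, which was -0.66 ± 0.73 with it and 0.60 ± 0.50 without it. In that library eosinophil and mast cell markers, at a summed 240 CPM against 67.9 to 120 in the other negative libraries, and B cell markers, at 1374 against 395 to 970 CPM, were the highest of the group, as were plasma cell (142820 CPM) and T and innate lymphoid cell markers (558 CPM). The eosinophil genes Siglecf and Ccr3 were at 0 there. The mean log2 CPM of the 6 neutrophil markers was 1.22, 1.66, 1.11 and 0.056 in negative replicates 1 to 4. Ranked by it, the negative libraries came in the same order as for Mmp9. The neutrophil sum was instead highest in negative replicate 1, at 66.7 CPM. In positive libraries the neutrophil mean was highest in replicate 1 (1.02), where Mmp9 was lowest. The part of these cells in the Mmp9 level was not tested.

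Mmp2, gelatinase A, a protease known mainly from fibroblasts, was at 83.2, 103, 101 and 104 CPM in positive libraries. Negative libraries had 192, 99.3, 192 and 259 CPM. The groups overlapped through replicate 2, in which the positive library was 1.04 times the negative one, and in the other 3 animals the negative library was 1.91 to 2.49 times higher. The log2 fold change was -0.93 ± 0.26.

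**Figure D1:**
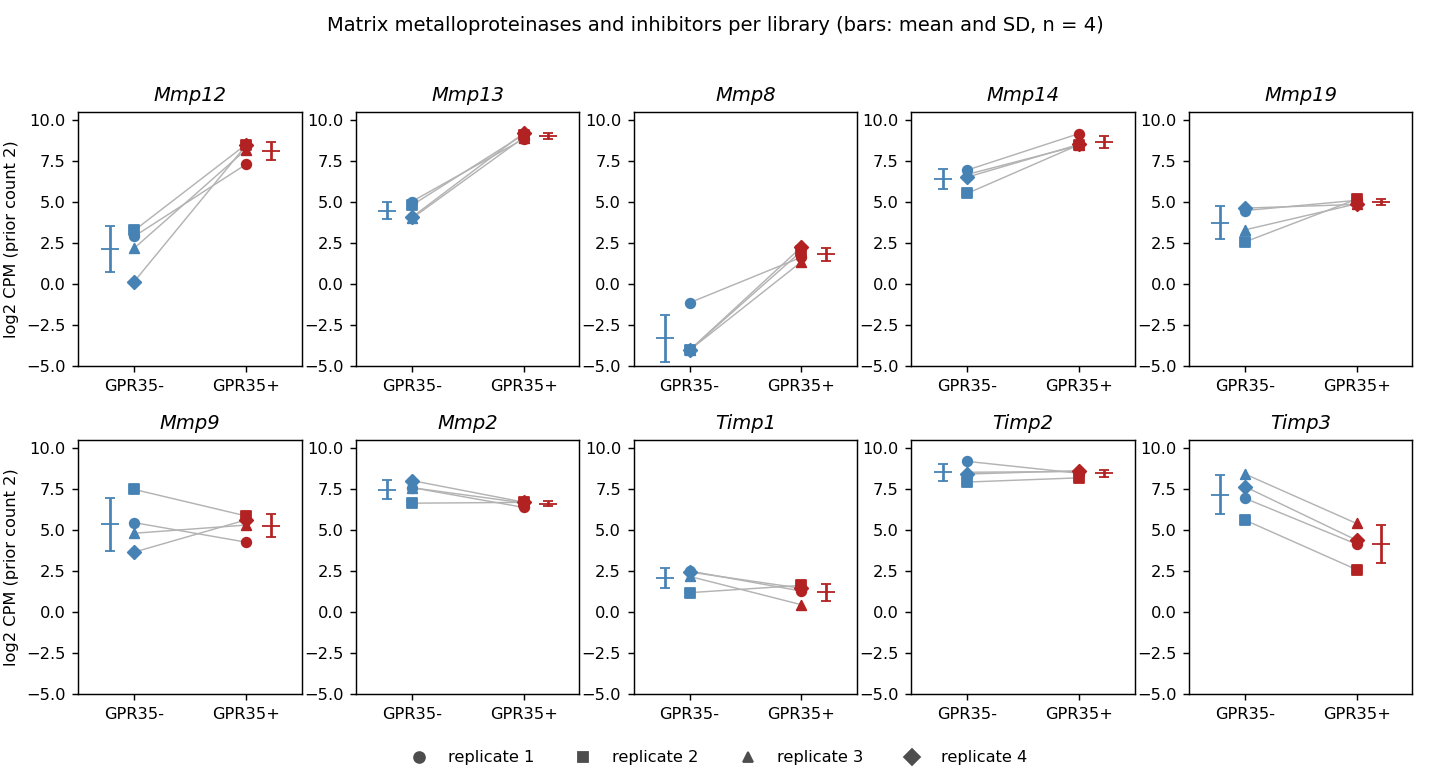
Level of each gene as log2 CPM (vertical axis) in GPR35-negative (blue) and GPR35-positive (red) libraries, with a marker shape per replicate, grey lines joining the libraries of 1 animal, and bars giving the mean and SD of 4 libraries. Mmp12, Mmp13, Mmp8, Mmp14 and Mmp19 are higher in positive libraries in all 4 animals and Timp3 is lower in all 4, while Mmp9, Mmp2, Timp1 and Timp2 go both ways.

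Of the inhibitors, Timp3, which stays bound to the matrix and also blocks Adam17, differed most. It was at 17.5, 5.93, 42.1 and 20.7 CPM in positive and 122, 48.7, 342 and 200 CPM in negative libraries. The groups did not overlap, and within animals the positive level was 0.143, 0.122, 0.123 and 0.103 times the negative one, a narrow range although the level itself varied 7.10-fold among the positive and 7.02-fold among the negative libraries. The log2 fold change was -3.05 ± 0.70, and -3.03 with the animal as a block, with an SE of 0.13.

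Timp2, an inhibitor made by many cell types, had the smallest fold change of the set. Its levels were 352, 290, 380 and 392 CPM in positive and 582, 243, 367 and 341 CPM in negative libraries. The positive library was slightly higher in 3 animals and lower in replicate 1, and the log2 fold change was -0.12 ± 0.25, or 0.16 without negative replicate 1. Timp1, the inducible soluble inhibitor, was low in every library: 2.36, 3.01, 1.30 and 2.66 CPM in positive and 5.59, 2.20, 4.44 and 5.35 CPM in negative ones. It was lower in the positive library of replicates 1, 3 and 4 and higher in replicate 2, with a log2 fold change of -0.92 ± 0.46. Timp1, Timp2 and Timp3 overlap Syn1, Cep295nl and Syn3, and Mmp19 overlaps Tmem198b. Cep295nl is on the strand of Timp2 and the other 3 are on the strand opposite to their partner. These overlaps are of whole gene spans, and exons were not compared. The libraries do not mark strand, so only reads from exon bases shared by both genes could not be assigned to 1 of them. Mmp8 and Mmp2 overlap the long noncoding RNA genes Gm31751 and Gm45472, which were not analysed here. The highest count of Syn1, Cep295nl or Syn3 in any library was 122, 83 and 70, and that of Tmem198b was 1181.

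In the fit across all 14184 tested genes, 4 of the 10 genes were past the threshold (edgeR adjusted p under 0.05) as higher in GPR35-positive libraries, where 18.5% of all genes were. They were Mmp12, Mmp13, Mmp14 and Mmp8. Another 2, Timp3 and Mmp2, were past it as lower, where 19.5% of all genes were (38.0% in either direction). The median log2 fold change was 0.46 over the 10 genes and -0.05 over all genes. The groups did not overlap for 5 genes that were higher (21.5% of all genes) and 1 that was lower (20.6%). The rule that chose the genes used this contrast, so nothing is read from these counts. Some calls ended when an animal or a library was left out, in fits with fewer libraries, although each fold change kept its sign. Mmp2 was no longer past the threshold without replicate 1 (-0.84), 3 (-0.93) or 4 (-0.75) or without positive replicate 1 (-0.85). Timp3 lost its call without replicate 4 (-2.96), and Mmp8 without replicate 2 (4.64), 3 (4.76) or 4 (4.44) or without positive replicate 4 (4.86), all on the log2 scale.

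When libraries were instead scaled so that the geometric mean of the 20 identity genes was equal in all of them, the median of all genes moved to -2.59. A value then says how a gene stood relative to macrophage transcripts of the same library. Mmp8 (3.51 ± 1.38), Mmp12 (3.40 ± 0.57) and Mmp13 (2.15 ± 0.42) stayed above 0 and past the threshold on that scale, as 0.557% of all genes did. Mmp14 came to -0.34 ± 0.47, close to the identity genes themselves, and Mmp19 to -1.41 ± 0.53. Timp2 lay at -2.53 ± 0.46, Mmp9 at -2.98 ± 0.73, Timp1 at -3.45 ± 0.80, Mmp2 at -3.51 ± 0.53 and Timp3 at -5.82 ± 1.11. Those 5 genes and Mmp19 were past the threshold as lower, where 86.4% of all genes were. The rule that chose the genes used this contrast, so nothing is read from these counts either.

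**Figure D2:**
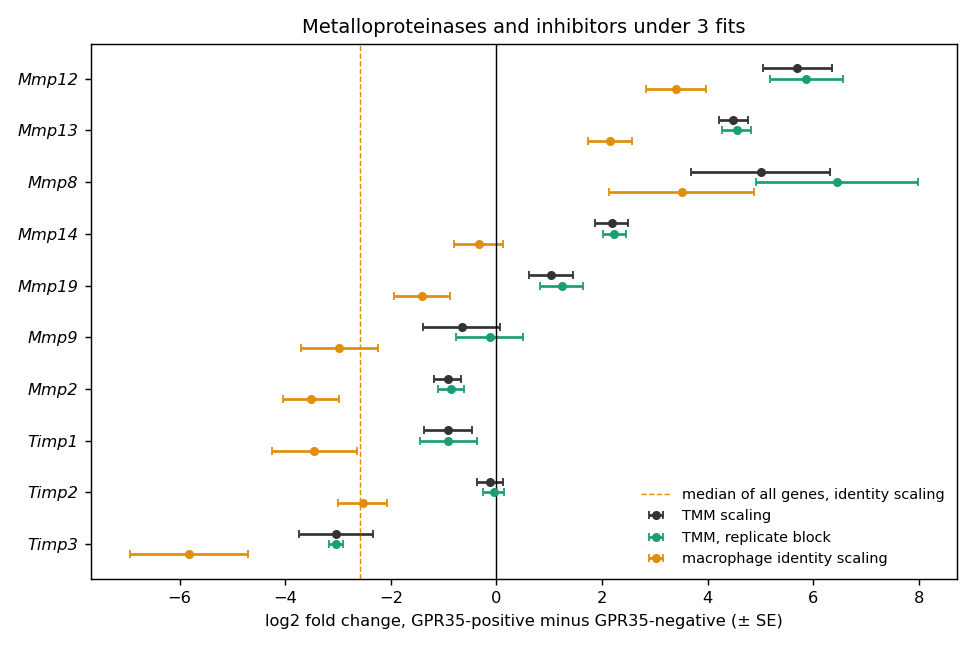
Log2 fold change ± SE (horizontal axis) of each gene under TMM scaling, under TMM scaling with the animal as a block, and with libraries scaled to macrophage identity genes. Mmp12, Mmp13 and Mmp8 lie above 0 in all 3 fits, Mmp14 and Mmp19 cross 0 with identity scaling, and the dashed line marks the median of all genes (-2.59) on that scale.

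The rule set macrophage proteases against stromal genes, and the 4 genes on its stromal side did not follow the fibroblast markers alike. Levels were set against the mean log2 CPM of the 12 fibroblast genes in the same library (1 of them, Thy1, is also a T cell gene). Timp3 kept a nearly fixed distance from them in positive libraries, 0.05 ± 0.21 (SD, n = 4), and stood at -0.40 ± 0.88 in negative ones. Mmp2 was close to the fibroblast mean in negative libraries (-0.10 ± 0.32) but 2.54 ± 0.99 above it in positive ones. For Timp2 the distances were 4.39 ± 0.79 in positive and 0.96 ± 0.62 in negative libraries, and for Timp1 -2.87 ± 1.43 and -5.48 ± 0.47. Among the positive libraries the fibroblast sum ranged from 156 CPM in replicate 2 to 990 CPM in replicate 3. Mmp2 over the same libraries was 103 and 101 CPM, Timp2 290 and 380 CPM, and Timp3 5.93 and 42.1 CPM. Among the positive libraries Timp3 was thus lowest and highest where the fibroblast markers were, while Mmp2 differed little between them. Other stromal markers moved with Timp3 too. Over 7 smooth muscle and pericyte genes the sum was 62.4, 48.3, 338 and 152 CPM in positive and 391, 264, 1740 and 1304 CPM in negative libraries of replicates 1 to 4, the same order within each group as for Timp3. Over 4 glial genes it was 1.75, 0.536, 9.76 and 5.51 CPM and 4.22, 1.84, 108 and 48.5 CPM, again in that order. In the negative group the fibroblast sum was highest in replicate 4 (7492 CPM), and Timp3 and the sums of 7 endothelial genes (142 to 720 CPM), smooth muscle and glial genes were highest in replicate 3. The part of each of these cell types in the Timp3 level was not tested.

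**Figure D3:**
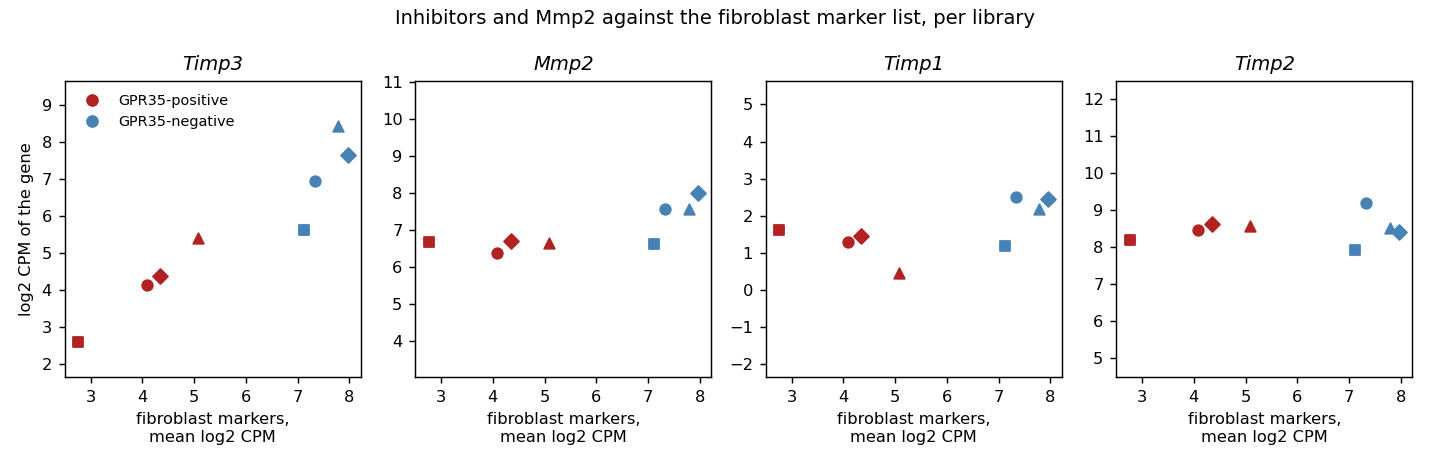
Log2 CPM of Timp3, Mmp2, Timp1 and Timp2 (vertical axes, each 8 log2 units tall) against the mean log2 CPM of 12 fibroblast markers (horizontal axis) in 8 libraries, red for GPR35-positive and blue for GPR35-negative, with circle, square, triangle and diamond for replicates 1 to 4. Timp3 is lowest and highest among the positive libraries where the markers are (in the negative group it peaks in replicate 3 and the markers in replicate 4), whereas Mmp2 and Timp2 differ little across the 4 positive libraries.

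Levels were compared between genes as CPM per kb of the gene length given in the table. In GPR35-positive libraries Mmp13 was highest at 199 ± 22.5 CPM per kb (SD, n = 4), followed by Mmp14 at 162 ± 42.8, with ranges that overlapped (175 to 224 and 137 to 226). Timp2 (97.7 ± 12.5) and Mmp12 (81.8 ± 26.5) came next and overlapped each other. Mmp2 followed at 32.1 ± 3.21, below all libraries of Mmp12, and then Mmp9 at 13.0 ± 5.25 and Mmp19 at 9.46 ± 1.02, which overlapped. Timp3 (4.60 ± 3.22), Timp1 (2.62 ± 0.83) and Mmp8 (1.46 ± 0.40) were lowest and overlapped in that order. In GPR35-negative libraries the order was another. Timp2 led at 106 ± 39.5 CPM per kb, followed by Mmp2 (61.0 ± 21.5), Timp3 (38.1 ± 26.8), Mmp14 (35.6 ± 12.8) and Mmp9 (20.6 ± 23.9), each overlapping its neighbours. Mmp13 (8.84 ± 3.13), Timp1 (4.94 ± 1.74), Mmp19 (4.60 ± 2.71), Mmp12 (1.58 ± 1.04) and Mmp8, with 3 of 4 libraries at 0, had lower means.

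Summed per kb, the 7 proteases came to 498 ± 29.5 CPM per kb in positive and 132 ± 12.4 in negative libraries, and the 3 inhibitors to 105 ± 14.5 and 149 ± 50.6. Proteases thus stood to inhibitors as 4.72, 6.10, 3.99 and 4.54 in the positive libraries of replicates 1 to 4 and as 0.758, 1.52, 0.680 and 0.970 in the negative ones, with no overlap. Mmp12, Mmp13 and Mmp14 made up 87.6% to 90.9% of the protease sum in positive libraries and 25.7% to 42.9% in negative ones. Mmp2 was 5.59% to 7.18% of it in positive and 26.8% to 61.3% in negative libraries. Of the inhibitor sum Timp2 was 90.9% to 94.5% in positive and 56.5% to 83.9% in negative libraries, and Timp3 was 1.49% to 7.80% and 13.0% to 40.7%. Mmp14 per kb was 1.31 to 2.32 times Timp2 in positive and 0.268 to 0.396 times in negative libraries. Mmp12 and Mmp13, both high in positive cells, did not keep one ratio: Mmp12 per kb was 0.252 times Mmp13 in positive replicate 1 and 0.438 to 0.487 times in the other 3. These ratios are of transcripts and combine the same contrast that chose the genes.

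**Figure D4:**
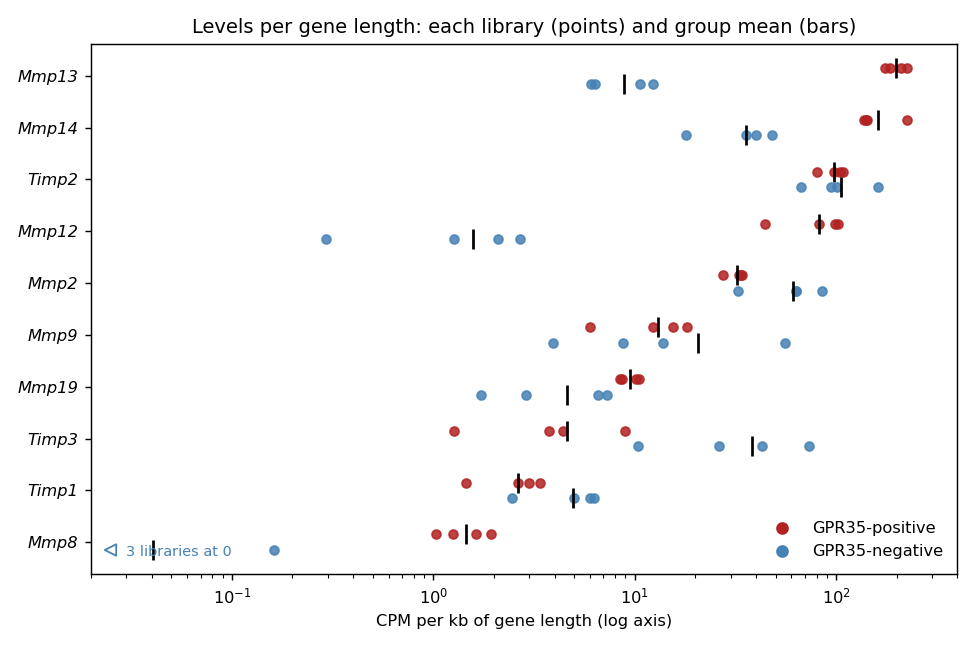
CPM per kb of gene length (log axis) of each gene in every library, red for GPR35-positive and blue for GPR35-negative, with black bars at group means and an open triangle for the 3 negative libraries with no Mmp8 count. Mmp13 and Mmp14 lead in positive libraries (199 and 162 on average), and Timp2 and Mmp2 lead in negative libraries (106 and 61.0).

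For 4 genes the tested genes with the most similar profile over the 8 libraries were searched, by the root mean square difference of log2 CPM after centring each gene, among the 9407 genes whose mean log2 CPM reached 3. Closest to Mmp12 were H2-M2 (0.73), the Toll-like receptor gene Tlr12 (0.74), Dnase1l3 (0.88), LOC100038947 (0.92) and Spint1, a serine protease inhibitor (0.93). Closest to Mmp14 were Igsf8, Atad2b, Dock4, Mgat4a and Spsb1 (0.25 to 0.26). Tmem63b, Pycrl, Entpd5, Cmc2 and Cdpf1 were closest to Mmp2 (0.17 to 0.20), and Rab33b, Aven, Il17rc, Cbx6 and Fancc to Timp1 (0.32 to 0.35). No collagen or other fibroblast marker of the list was among the closest genes of Mmp2. The measure also counts the size of the fold change, which was -0.93 for Mmp2 and -3.34 in the median of fibroblast markers (log2). The search therefore cannot show whether Mmp2 followed these markers.

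Beyond the 10 genes, 66 other genes of the pathway were listed, of which 54 were in the table and 47 were tested. In GPR35-positive libraries 15 rose and 11 fell (edgeR adjusted p under 0.05; 18.5% and 19.5% of all genes), and their median log2 fold change was -1.06. The lists split by family. Of 11 tested genes of the ADAM list, a family that includes membrane proteases shedding cytokines and receptors, 7 rose and 1 fell, with a median of 1.04. Adam17, the sheddase of TNF, was at 356 ± 53.3 CPM in positive and 102 ± 32.8 CPM in negative libraries (1.80 ± 0.23, edgeR adjusted p = 6.25e-04). Adam8 rose by 2.85 ± 0.34 (adjusted p = 4.43e-04) and Adam19 by 1.63 ± 0.14 (adjusted p = 1.04e-04) in the same edgeR test, each higher in 4 of 4 animals. The gene that fell, Adamdec1, was at 247 ± 18.7 against 1479 ± 471 CPM (-2.58 ± 0.23, edgeR adjusted p = 1.17e-04). Relative to identity genes, 0 of these 11 passed the edgeR threshold as higher, where 0.557% of all genes did. At an unadjusted p under 0.05 also 0 were higher. As lower 7 passed the threshold, where 86.4% of all genes did. Adam17 then stood at -0.58, Adam19 at -0.83 and Adam8 at 0.26.

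Other matrix metalloproteinases went mostly the other way: of 10 tested 4 fell, 1 rose and 5 did not pass, with a median of -2.54. Over all genes 19.5% fell and 18.5% rose. Those that fell included Mmp23, at 1.51 ± 0.68 against 17.4 ± 7.33 CPM (-3.52 ± 0.45, edgeR adjusted p = 6.51e-04), and Mmp11, stromelysin-3 (-2.71 ± 0.58, edgeR adjusted p = 6.61e-03). Relative to identity genes 0 of the 10 were past the edgeR threshold as higher and 9 as lower (0.557% and 86.4% of all genes). Mmp15, a membrane-type protease, fell in the full fit (-3.60 ± 1.10, edgeR adjusted p = 0.0303), but not with the animal as a block (-2.77, adjusted p = 0.0717) or under 10 further settings. Its groups overlapped, at 0.167 to 0.624 CPM in positive libraries and 0.275, 0.951, 11.2 and 6.38 CPM in negative replicates 1 to 4. In replicate 1 the positive library was the higher one, at 0.350 CPM. Mmp25, a glycolipid-anchored protease of leukocytes, was the one that rose (4.08 ± 1.27, edgeR adjusted p = 0.0324). It had 84 to 336 counts per positive library and 0 to 20 per negative library, and its call ended under 9 of 21 other settings, among them the removal of replicate 1 (adjusted p = 0.154), 2 (0.062) or 4 (0.0822). Mmp3 and Mmp10, named after their values were seen, lie in the chromosome 9 cluster between Mmp12 and Mmp8. Mmp3, stromelysin-1, was at 1.38, 0.0335, 1.17 and 0.805 CPM in positive and 4.19, 3.92, 4.28 and 5.09 CPM in negative libraries (-2.36 ± 0.81, edgeR adjusted p = 0.0482, and 0.0564 with the animal as a block). Mmp10 was at 1.40 ± 0.74 against 3.67 ± 2.57 CPM (-1.39 ± 0.70, edgeR adjusted p = 0.148). The 5 measured genes of the cluster thus did not share a direction.

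Of 12 tested ADAMTS proteases, secreted enzymes that process procollagens and cut proteoglycans, 4 fell and 0 rose (median -2.49). Over all genes 19.5% fell and 18.5% rose. At an unadjusted edgeR p under 0.05 also 0 rose and 6 fell, and DESeq2 gave 0 and 5 and limma voom 0 and 3 adjusted calls. Of all 14184 genes DESeq2 called 2983 higher and 3600 lower, and limma voom 2964 and 2744. On the identity scale 0 of the 12 were past the edgeR threshold as higher and 10 as lower (0.557% and 86.4% of all genes). Adamts14 (-4.87 ± 0.88, edgeR adjusted p = 3.15e-03) and Adamts2 (-3.57 ± 0.76, edgeR adjusted p = 6.60e-03), both procollagen N-proteinases, fell, as did Adamts4 (-2.55 ± 0.66, edgeR adjusted p = 0.0157) and Adamts5 (-3.93 ± 1.19, edgeR adjusted p = 0.0295), both aggrecanases. Adamts2 lost its call without replicate 4 (adjusted p = 0.0513), Adamts4 without replicate 1 (0.0691), replicate 4 (0.0542) or positive replicate 4 (0.0501), and Adamts5 under 8 of 21 other settings. Fibroblast markers moved with them: all 12 were lower in positive libraries, at a median of -3.34, and their part in the ADAMTS values was not tested. Of the other inhibitors 2 were tested and 0 passed, by edgeR, DESeq2 or limma voom (at an unadjusted p under 0.05, 0 by edgeR and limma voom and 1 by DESeq2). Reck, a membrane-anchored inhibitor, was at -2.51 ± 1.26 (edgeR adjusted p = 0.145) and Tfpi2 at -1.95 ± 1.43 (edgeR adjusted p = 0.308).

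Activators and binding partners rose for 7 of 12 and fell for 2 (18.5% and 19.5% of all genes), with a median of 0.96. Plaur, the urokinase receptor that focuses plasmin formation at the cell surface, was at 271 ± 66.4 against 26.6 ± 9.50 CPM (3.35 ± 0.29, edgeR adjusted p = 1.10e-04). Cd44, a hyaluronan receptor that can hold Mmp9 at the cell surface, rose by 0.86 ± 0.15 (edgeR adjusted p = 2.89e-03). Bsg, which encodes the metalloproteinase inducer basigin, fell by 1.03 ± 0.18 on the log2 scale (edgeR adjusted p = 3.12e-03), and the proprotein convertase Pcsk5 fell by 3.79 ± 0.69 (edgeR adjusted p = 3.22e-03). On the identity scale 0 genes of the list were past the edgeR threshold as higher (0 also at an unadjusted p under 0.05). As lower 7 were past it, where 86.4% of all genes were (0.557% as higher). Cd44 stood at -1.64 and Plaur at 0.86 (edgeR adjusted p = 0.0829).

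**Figure D5:**
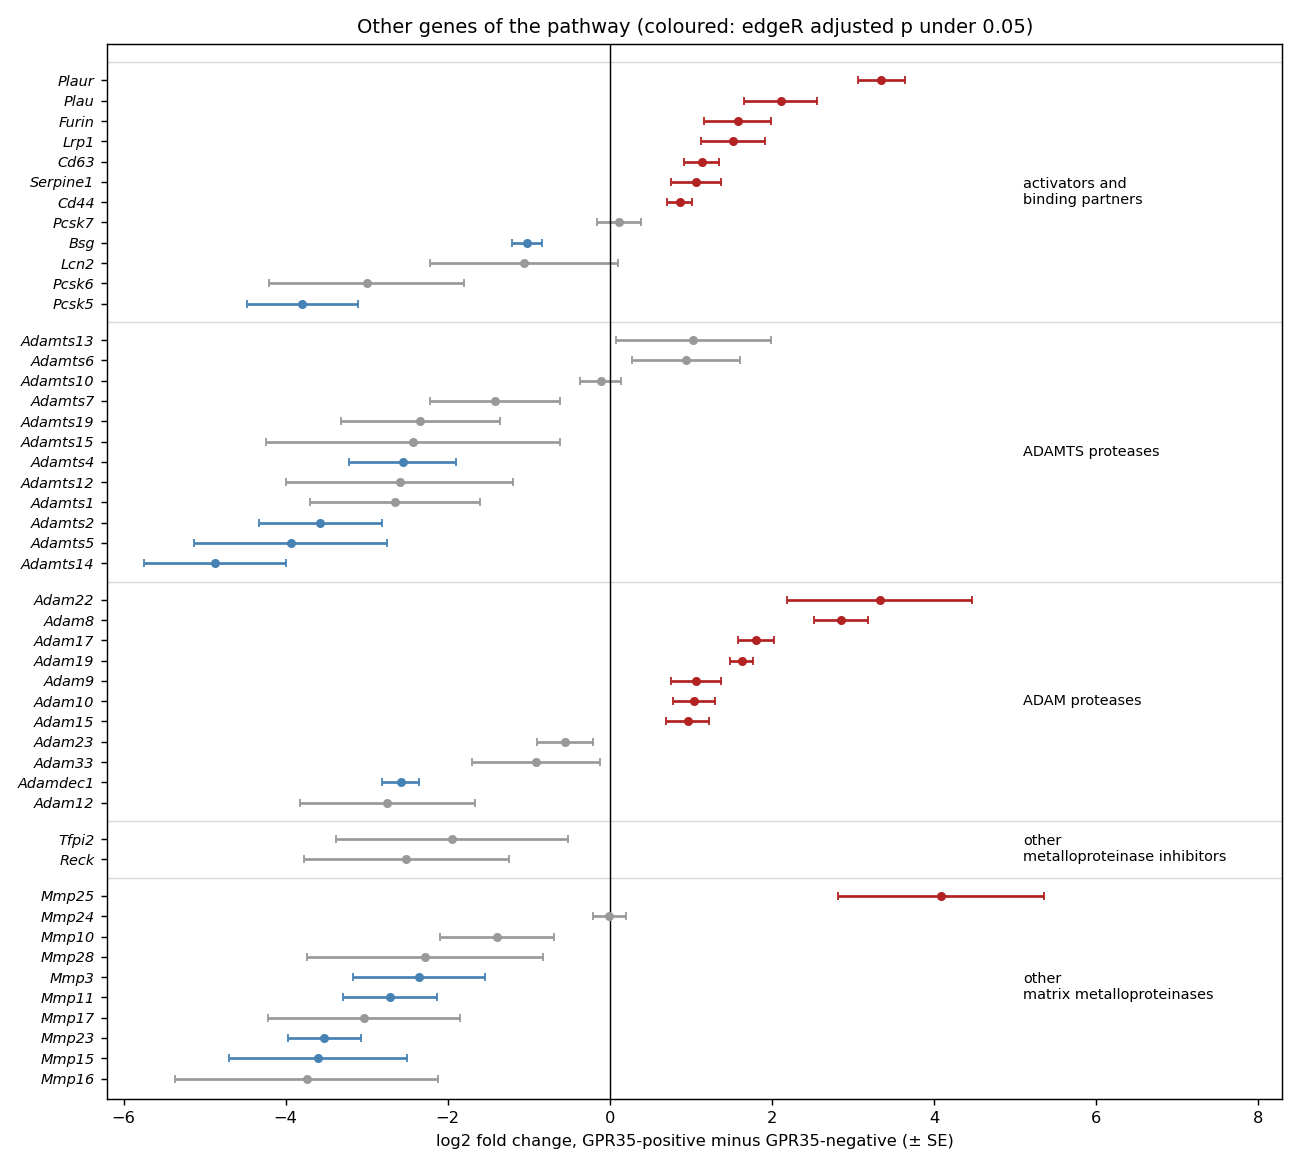
Log2 fold change ± SE (horizontal axis) of the 47 tested genes outside the main set, grouped by list, with red for genes past an edgeR adjusted p of 0.05 as higher, blue for lower and grey for the rest. ADAM proteases and activators lie mostly above 0, with 7 of 11 and 7 of 12 higher, and ADAMTS proteases and other metalloproteinases mostly below, with 4 of 12 and 4 of 10 lower. Over all genes 18.5% were higher and 19.5% lower.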

How the data were processed

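RNA of 8 libraries, 4 GPR35-positive and 4 GPR35-negative, was amplified with SMART-Seq v4 and made into Nextera XT libraries, per the labels' protocols; this marks no strand and uses no molecular identifiers. The authors deposited a table of unnormalised counts of reads for each gene and library, with a gene length. STAR 2.5.2a, R 3.4.2 and mm10 are named, per the submitters' processing notes; the counting tool is not given in the sources used here. Genes without a symbol (9 of 14980, 0.0179% of counts) were left out.

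Counts were tested with edgeR 4.0.16 (R 4.3.3): filterByExpr (minimum count 10, minimum total 15), TMM scaling and a robust quasi-likelihood F-test without a block, adjusted by Benjamini-Hochberg over 14184 genes at a threshold of 0.05. The SE was derived from the size of the log2 fold change and the F statistic. CPM uses TMM effective sizes; log2 CPM uses a prior count of 2. Alternatives were RLE, library size, identity scaling, other filters, DESeq2 1.42.0, limma 3.58.1 voom, no robust estimation, the animal block and leaving out libraries. The test was checked on simulated counts. Sequences and positions are from RefSeq GRCm38.p6, matched by Entrez ID; figures used matplotlib 3.10.9.

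The same animal number pairs the libraries. After subtracting group means, log2 CPM of the partners had correlations over genes of 0.206, 0.206, 0.431 and 0.0637 (replicates 1 to 4). The highest correlation of each positive library with a negative library of another animal was 0.1042, 0.09113, 0.1725 and 0.2375. In replicate 4 it was thus above that of the partner. Genes are not independent replicates. No replicate pair agreed within sampling noise (smallest chi-square per degree of freedom 26.6). P-values measure the spread between 4 animals per group, and counting floors cover counting error only.

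The genes, lists, alternatives and tests were chosen with earlier results of these data known. Named were the 10 genes, Gpr35, up to 4 genes of smallest p past the threshold per pathway list, and the 5 nearest profiles of Mmp12, Mmp14, Mmp2 and Timp1; single marker genes, and others marked so, were named after their values were seen.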

Additional observations from a re-analysis of the deposited data

Results flagged for a closer look

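A sample far from the other 3 of its group was looked for in 52 combinations of gene and group, and 4 were found. Chance gives about 1 in 20. Mmp8 was at 0.397 CPM in GPR35-negative replicate 1 and at 0 in the other 3 negative libraries. With 3 libraries tied at 0 any count in the other one is flagged, so that rate does not apply to Mmp8. Mmp14 was at 586 CPM in GPR35-positive replicate 1 and at 356 to 371 CPM in the other positive libraries. Mmp2 was at 83.2 CPM in that same library and at 101 to 104 CPM in the others. Adam17 was at 151 CPM in GPR35-negative replicate 1 against 82.4 to 89.3 CPM in the other negative libraries. In GPR35-negative replicate 1 the macrophage identity genes summed to 24398 CPM, against 5626 to 12113 CPM in the other negative libraries, and their part in the Mmp8 and Adam17 levels was not tested.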

How the results depend on the processing

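With identity scaling 79 genes were higher and 12251 lower (108 and 11629 with the replicate block), 6 of the 10 genes were lower (5 with the block), and 0 and 35 of the pathway genes were higher and lower (1 and 33 with the block). With library size only, 1692 genes were higher and 4193 lower. With the filter of 5 CPM, 7 pathway genes were lower. With identity scaling, without and with the replicate block, Mmp14 turned to -0.34 and -0.12, Mmp19 to -1.41 and -1.10, Adam19 to -0.83 and -0.72, Adam17 to -0.58 and -0.52, and Cd44 to -1.64 and -1.50. The rescaling by construction shifts all genes. Mmp9 changed sign with limma voom (0.049), without replicate 2 (0.40) and without negative replicate 2 (0.60), and Timp2 without replicate 1 or negative replicate 1 (0.16 each), in a range of -0.25 to 0.16 over the fits that left out animals or libraries. Leaving out animals or single libraries gave 1572 to 2931 higher and 1680 to 3035 lower genes, 3 to 5 higher and 0 to 2 lower of the 10 genes, and 8 to 14 higher and 6 to 12 lower pathway genes; fewer libraries entered these fits. The lowest all-gene counts came without replicate 3 (1572 higher) and replicate 4 (1680 lower), and without replicate 4 no gene of the 10 was lower. Under the replicate block with TMM the calls of Mmp15 and Mmp3 ended, and no other named gene of the set or the pathway lists changed its call. Mmp12 and Mmp13 kept their direction and call under all 22 settings. At this depth Mmp8 rests on at most 195 counts per library.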

Other observations

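For genes other than the 4 searched by rule, nearest profiles were read after the values were seen. Mmp13 was closest to Il1a (root mean square difference 0.24 log2 units over 8 libraries), Amz1 (0.31), Havcr2 (0.40), Il1b (0.40) and Spp1 (0.43). Mmp8 was closest to Sirpb1b (0.48), Klra2 (0.50), Abcg3 (0.57), Ccr2 (0.60) and Il1b (0.61). Timp3 was closest to Hhip (0.18), Fbln2 (0.30), Emp2 (0.31), Gm13889 (0.32) and Col4a2 (0.33), a chain of basement membrane collagen. Timp2 was closest to Zfp213, Mfn2, Hp1bp3, Dhx57 and Ighmbp2 (0.15 to 0.17).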
